A study of Homo sapiens with 16 samples.

Results

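The genes described here encode the NKG2D ligands, the cell-surface proteins that natural killer (NK) cells and cytotoxic T cells read through the activating receptor NKG2D. The members were listed by name as *ULBP1*, *ULBP2*, *ULBP3*, *MICA*, *MICB*, *RAET1G* and *RAET1L*, and all 7 were found by symbol among the 33937 genes of the deposited count table. They were listed with results of these libraries known, so their differences between the groups below are a description, given with a standard error (SE) and no p-value. Where members are counted among called genes, the calls rest on the values by which they were listed and are no independent test of them. *RAET1E*, the remaining protein-coding gene of the same family, was not listed and is given beside them for completeness.

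HCT116, a colorectal carcinoma line long in culture, carried either a scrambled short hairpin RNA (SCR) or one directed against *NAA40*, the N-terminal acetyltransferase of histones H4 and H2A (NAA40-KD), under the control of doxycycline (dox). RNA-seq was made from 16 libraries, 4 for each line without dox (SCR (-dox) and NAA40-KD (-dox) by their labels) and 4 for each line with it, labelled SCR (+dox) and NAA40-KD (+dox). All 4 groups carried a hairpin, were grown in the same medium, and had dox at 1 µg/ml or no dox for 96 h. The labels do not say whether each line is 1 clone, so that any difference between the 2 lines other than the hairpin cannot be told apart from it. The short sample names end in Dox or in wDox, and titles and treatment entries assign wDox to the cells without dox, although wDox could be read the other way round.

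NKG2D ligands are distant relatives of MHC class I molecules that present no peptide. Healthy epithelium carries little of them, and stress, DNA damage, heat shock or transformation raises them, so that a cell that displays them can be recognised and killed. They fall into the MIC proteins, which span the membrane, and the ULBP or RAET1 proteins, most of which are held by a glycosylphosphatidylinositol (GPI) anchor.

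The members lie in 2 places on chromosome 6 (GRCh38, GENCODE release 29). *MICA* (ENSG00000204520, + strand, chr6:31399784-31415315) and *MICB* (ENSG00000204516, + strand, chr6:31494881-31511124) stand within 111 kb of each other in the MHC class I region. The other members stand in a cluster of 186 kb at 6q25, which also holds *RAET1E* (ENSG00000164520, - strand, chr6:149883375-149898102). In order these are *RAET1G* (ENSG00000203722, - strand, chr6:149916878-149923121), *ULBP2* (ENSG00000131015, + strand, chr6:149942000-149949235), *ULBP1* (ENSG00000111981, + strand, chr6:149964007-149973710), *RAET1L* (ENSG00000155918, - strand, chr6:150018334-150025532) and *ULBP3* (ENSG00000131019, - strand, chr6:150063150-150069095). All 7 are annotated as protein-coding, and each count sums the reads over a gene's exons.

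The sequences before the transcription starts are shown because *ULBP1*, lower in every library of the NAA40-KD line, and *MICA*, highest in NAA40-KD (-dox), each shared a short motif with 1 other gene of the 8 family genes. They are the 250 bases before the start that RefSeq gives on GRCh38.p14, 5′ to 3′ on the strand of the gene. In the first pair the capitals mark TGACG or its reverse complement, the core of the cyclic-AMP and ATF response element. The windows are chr6:149963693-149963942 for *ULBP1* and chr6:149941764-149942013 for *ULBP2*.
ULBP1 promoter: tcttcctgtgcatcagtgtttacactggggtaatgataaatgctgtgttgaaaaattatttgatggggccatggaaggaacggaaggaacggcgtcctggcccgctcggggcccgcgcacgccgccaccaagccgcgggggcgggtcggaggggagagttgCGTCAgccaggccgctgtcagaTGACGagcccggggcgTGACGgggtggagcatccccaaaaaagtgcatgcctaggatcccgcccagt
ULBP2 promoter: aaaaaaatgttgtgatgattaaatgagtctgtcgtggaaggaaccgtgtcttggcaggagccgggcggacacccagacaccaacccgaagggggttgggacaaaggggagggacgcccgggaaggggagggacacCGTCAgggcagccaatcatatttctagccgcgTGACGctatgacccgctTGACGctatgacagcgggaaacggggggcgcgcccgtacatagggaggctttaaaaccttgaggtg
TGACG occurred 3 times in the *ULBP1* window, starting 89 (opposite strand), 67 and 51 bases before the start, and 3 times in that of *ULBP2*, at 115 (opposite strand), 83 and 66 bases. It was found in 0 of the other 6 family windows. Of all 35116 RefSeq promoter windows of the same length, 21.2% held TGACG at least once and 1.01% held it 3 times or more.

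In the second pair the capitals mark GAANNTTC, in which N is any base, 1 of the arrangements of the unit that heat shock factors bind. It reads the same on both strands. The windows are chr6:31403345-31403594 for *MICA* and chr6:31497895-31498144 for *MICB*.
MICA promoter: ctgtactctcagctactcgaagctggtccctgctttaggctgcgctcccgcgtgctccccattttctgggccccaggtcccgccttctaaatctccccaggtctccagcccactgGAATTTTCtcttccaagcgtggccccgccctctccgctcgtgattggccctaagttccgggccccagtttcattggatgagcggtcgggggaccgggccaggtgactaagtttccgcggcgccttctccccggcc
MICB promoter: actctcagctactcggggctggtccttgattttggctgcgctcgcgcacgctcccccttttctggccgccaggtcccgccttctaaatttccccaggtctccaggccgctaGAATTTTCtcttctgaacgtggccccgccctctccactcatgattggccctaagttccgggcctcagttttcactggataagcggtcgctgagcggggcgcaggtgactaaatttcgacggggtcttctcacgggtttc
GAANNTTC occurred once in each, starting 135 bases before the start in *MICA* and 139 in *MICB*, and in 5.78% of all windows. Both motifs were picked from 14 searched on both strands after the sequences and the values had been seen. Among the others were TGACGTCA, the full cyclic-AMP element that contains TGACG, TGATGNAA for the composite of C/EBP and ATF factors, TTCNNGAA as the other heat shock arrangement, TTTCCCGC and its variant TTTGGCGC for E2F, GGGCGG for SP1, CACGTG as the E-box, TGANTCA for AP-1, CCAAT for NF-Y, TATAAA as the TATA box and the NF-kB site. TGACGTCA was found in 0 of the 8 family windows, and so was TGATGNAA. TTCNNGAA was found only in the window of *RAET1E* and TTTCCCGC only in that of *ULBP2*. Of the 14 motifs GGGCGG was the most shared, in 6 of the 8 family windows and in 42.6% of all windows. A match describes these letters only, and whether any factor bound there was not tested.

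Total counts per library ranged from 11065606 to 13855486. Levels are given as CPM, the counts of a gene scaled to a common library total, with the TMM factors of edgeR over all 16 libraries. The gene targeted by the hairpin, *NAA40*, had a mean of 11.8 ± 1.93 CPM (SD, n = 4) in the NAA40-KD libraries labelled (-dox), while it had 30.3 ± 1.58 CPM in those labelled (+dox), 29.4 ± 3.62 CPM in SCR (-dox) and 27.3 ± 1.44 CPM in SCR (+dox). It was thus low in the group labelled without dox and not in the one labelled with dox, which goes against the labels, and every direction below rests on those labels. NAA40-KD (-dox) replicate 4 stood apart from its group, with 33.1% of 14392 genes more than 1 log2 unit from the group's median, where the other 15 libraries had 0.618 to 2.76%. Epithelial markers were present in every library, at a summed 3804 to 5498 CPM in 3 groups and 5124 to 11066 CPM in NAA40-KD (-dox). Of the intestinal markers among them, *CDX2* had 221 to 382 counts per library, while *VIL1* and *CDX1* had 0 to 3 counts.

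Most members were expressed at a moderate level, and the *MIC* genes were the highest for their length. Per kilobase of exon (CPM per kb), the means over 16 libraries were 12.6 for *MICB*, 12.4 for *MICA*, 10.4 for *ULBP3*, 9.63 for *ULBP2* and 9.09 for *ULBP1*. Their ranges over libraries overlapped, so that neighbours in this order did not stand apart. A gap followed, with *RAET1E* at 1.30, *RAET1L* at 1.16 and *RAET1G* at 0.224 CPM per kb. The order among the first 5 differed between groups, since *ULBP1* stood at 13.5 ± 0.728 CPM per kb in SCR (+dox) and at 4.94 ± 0.193 in NAA40-KD (+dox), the highest and the lowest of the 5 in those groups (SD, n = 4).

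**Figure D1:**
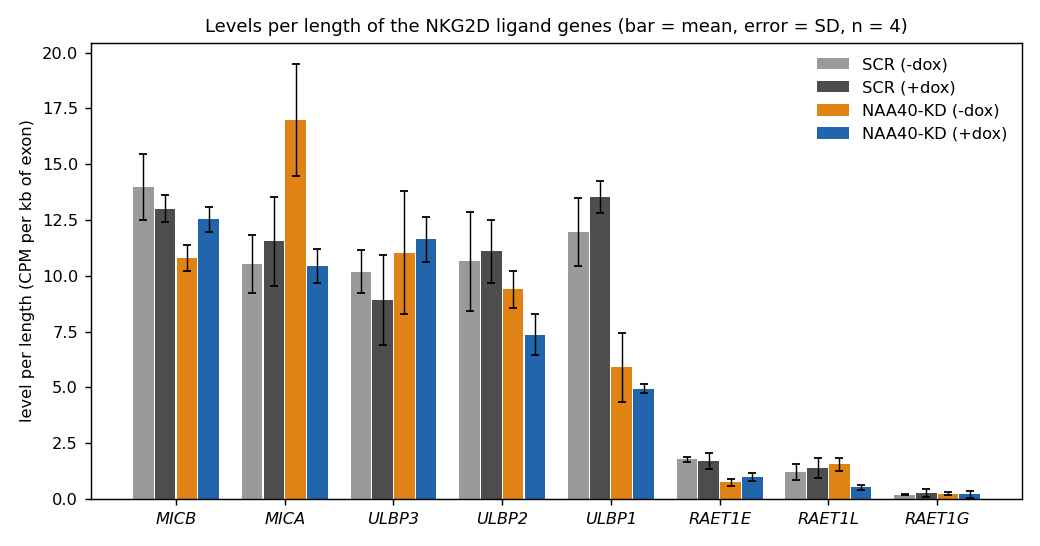
Level of each NKG2D ligand gene as CPM per kb of exon (y axis) in the 4 labelled groups, with bars for the mean and error bars for the SD of 4 libraries. *ULBP1* goes from 13.5 in SCR (+dox) to 4.94 in NAA40-KD (+dox), *MICA* is highest in NAA40-KD (-dox), and the *RAET1* genes stay under 2 CPM per kb.

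Summed over the 7 members, the level was 133 ± 7.83 CPM in SCR (+dox), 128 ± 6.47 CPM in SCR (-dox), 115 ± 7.07 CPM in NAA40-KD (-dox) and 97.9 ± 4.35 CPM in NAA40-KD (+dox) (SD, n = 4). Its composition also differed between the lines. *ULBP1* made up 32.1 ± 1.17% and 29.4 ± 3.92% of the sum in SCR (+dox) and SCR (-dox), and 15.9 ± 0.399% and 16.3 ± 4.72% in NAA40-KD (+dox) and NAA40-KD (-dox). *MICA* and *MICB* together made up 48.2 ± 2.53% and 50.1 ± 4.83% in the SCR groups and 61.2 ± 1.08% and 61.3 ± 2.70% in the NAA40-KD groups, in the same order. The larger share in NAA40-KD (+dox) came without a higher level, since *MICA* and *MICB* had means of 24.9 and 35.1 CPM there. In SCR (+dox) these means were 27.6 and 36.4 CPM. In bulk RNA, fewer cells that express a gene and less of its RNA per cell cannot be told apart.

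**Figure D2:**
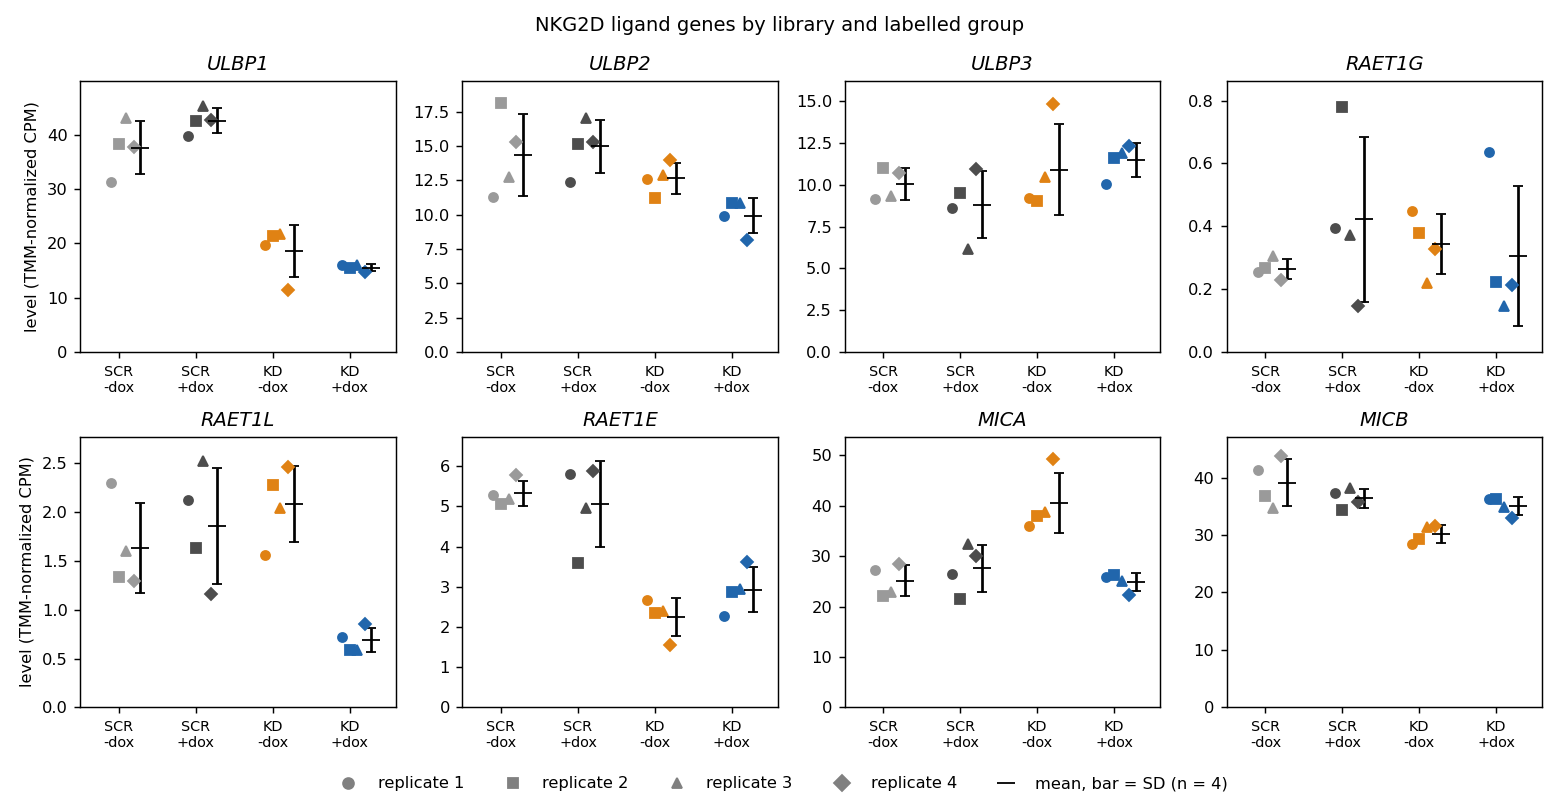
TMM-normalized CPM (y axis, from 0) of the 7 NKG2D ligand genes and *RAET1E* in each library, by labelled group, with a symbol for each replicate number and the mean ± SD of 4 libraries in black. *ULBP1* is lower in all 8 NAA40-KD libraries than in all 8 SCR libraries, *MICA* is highest in the 4 NAA40-KD (-dox) libraries, and *RAET1L* is lowest in the 4 NAA40-KD (+dox) libraries.

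*ULBP1*, a GPI-anchored ligand, had, of the 6 members tested, the largest log2 fold change between the SCR and NAA40-KD lines. Its levels were 39.7, 42.4, 45.3 and 42.7 CPM in SCR (+dox) and 31.3, 38.2, 43.1 and 37.8 CPM in SCR (-dox). The NAA40-KD libraries had 15.97, 15.43, 15.99 and 14.70 CPM with dox and 19.6, 21.4, 21.8 and 11.4 CPM without it. No NAA40-KD library reached any SCR library, and the lowest of all 16 was NAA40-KD (-dox) replicate 4, with 139 counts. The log2 fold change was -1.46 (SE 0.097) between the lines labelled (+dox) and -1.01 (SE 0.21) between those labelled (-dox). Without NAA40-KD (-dox) replicate 4 the group mean was 20.9 ± 1.17 CPM (SD, n = 3), which is 55.7% of the SCR (-dox) mean, and the log2 fold change was -0.85. The interaction, which is the difference between the 2 line effects, was -0.44 on the log2 scale with all libraries and -0.62 without that library.

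*ULBP2*, another GPI-anchored ligand, had the same direction and a smaller size. It had 12.4, 15.2, 17.0 and 15.3 CPM in SCR (+dox) and 9.89, 10.9, 10.8 and 8.17 CPM in NAA40-KD (+dox), with no overlap of these groups. In SCR (-dox) it had 11.3, 18.1, 12.7 and 15.3 CPM, and in NAA40-KD (-dox) 12.59, 11.23, 12.89 and 13.96 CPM, which overlapped. The log2 fold changes were -0.59 (SE 0.13) with dox and -0.17 (SE 0.18) without it.

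*ULBP3*, also GPI-anchored, was not lower in the NAA40-KD line. Its levels ran from 6.15 to 10.9 CPM in SCR (+dox) and from 10.1 to 12.4 CPM in NAA40-KD (+dox), with a log2 fold change of 0.38 (SE 0.15). Between the groups labelled (-dox) the log2 fold change was 0.13 (SE 0.20), and -0.07 without NAA40-KD (-dox) replicate 4, which at 14.9 CPM was 155% of the mean of the other 3. The sign of this difference thus rested on that library.

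*RAET1L*, which encodes the GPI-anchored ligand also called ULBP6, was weakly expressed. It had 27, 21, 34 and 16 counts in SCR (+dox), 27, 15, 21 and 17 in SCR (-dox), and 21, 30, 28 and 30 in NAA40-KD (-dox). NAA40-KD (+dox) had 8, 8, 8 and 12 counts, below every other library. As CPM these groups had 1.86 ± 0.590, 1.63 ± 0.464, 2.09 ± 0.389 and 0.690 ± 0.126 (SD, n = 4). The exact 95% Poisson interval of the summed counts, which covers counting error only, was 0.487 to 0.962 CPM in NAA40-KD (+dox) and 1.501 to 2.253 in SCR (+dox). The log2 fold change was -1.42 (SE 0.31) against SCR (+dox) and -1.59 (SE 0.25) against NAA40-KD (-dox). *RAET1L* passed the filter on low counts (CPM >1 in at least 4 libraries of a fit) only through the groups in which it was high, so that in these comparisons it had to differ.

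*RAET1G*, which encodes the ligand also called ULBP5, was close to the limit of detection. It had 2 to 10 counts per library, with sums of 22 and 13 counts for SCR with and without dox and of 15 and 18 counts for NAA40-KD with and without it, and did not pass the filter on low counts in any of the 5 fits. The exact Poisson intervals of these sums, 0.260 to 0.628, 0.141 to 0.452, 0.162 to 0.478 and 0.202 to 0.538 CPM, all overlapped. Overlap of intervals does not show that the groups were alike, and a difference of *RAET1G* was not tested in the 5 fits.

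*RAET1E* encodes the ULBP4 ligand, which spans the membrane, and like *ULBP1* it was lower in the NAA40-KD line. It had 5.81, 3.58, 4.96 and 5.87 CPM in SCR (+dox) and 5.27, 5.07, 5.19 and 5.77 CPM in SCR (-dox). The NAA40-KD libraries had 2.27, 2.88, 2.95 and 3.62 CPM with dox and 2.681, 2.353, 2.403 and 1.561 CPM without it. SCR and NAA40-KD libraries did not overlap without dox, while with dox the lowest SCR library, replicate 2, lay just under the highest NAA40-KD library, replicate 4. The log2 fold changes were -0.78 (SE 0.20) with dox and -1.23 (SE 0.20) without it.

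*MICA*, a membrane-spanning ligand, was highest in the libraries labelled NAA40-KD (-dox). It had 36.0, 37.9, 38.8 and 49.3 CPM there, of which the highest was replicate 4. The other groups had 25.9, 26.2, 25.1 and 22.2 CPM in NAA40-KD (+dox), 27.2, 22.1, 22.8 and 28.4 CPM in SCR (-dox), and 26.4, 21.5, 32.4 and 30.0 CPM in SCR (+dox). All 4 NAA40-KD (-dox) libraries were above the 12 others, whose groups overlapped one another. Against SCR (-dox) the log2 fold change was 0.70 (SE 0.17), and 0.57 without replicate 4, where the mean of 37.6 ± 1.41 CPM (SD, n = 3) was 149% of that in SCR (-dox). Between the lines labelled (+dox) it was -0.15 (SE 0.12). *NAA40* itself was also low in this group, and any part of that in the *MICA* difference was not tested.

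*MICB*, the other MIC ligand, was lower in NAA40-KD (-dox), where *MICA* was higher. It had 28.4, 29.4, 31.5 and 31.6 CPM in NAA40-KD (-dox) and 41.4, 36.7, 34.7 and 43.7 CPM in SCR (-dox), without overlap. The groups labelled (+dox) ran from 34.4 to 38.2 CPM in SCR and from 32.9 to 36.2 CPM in NAA40-KD, and overlapped. The log2 fold changes between lines were -0.37 (SE 0.15) without dox and -0.05 (SE 0.091) with it.

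**Figure D3:**
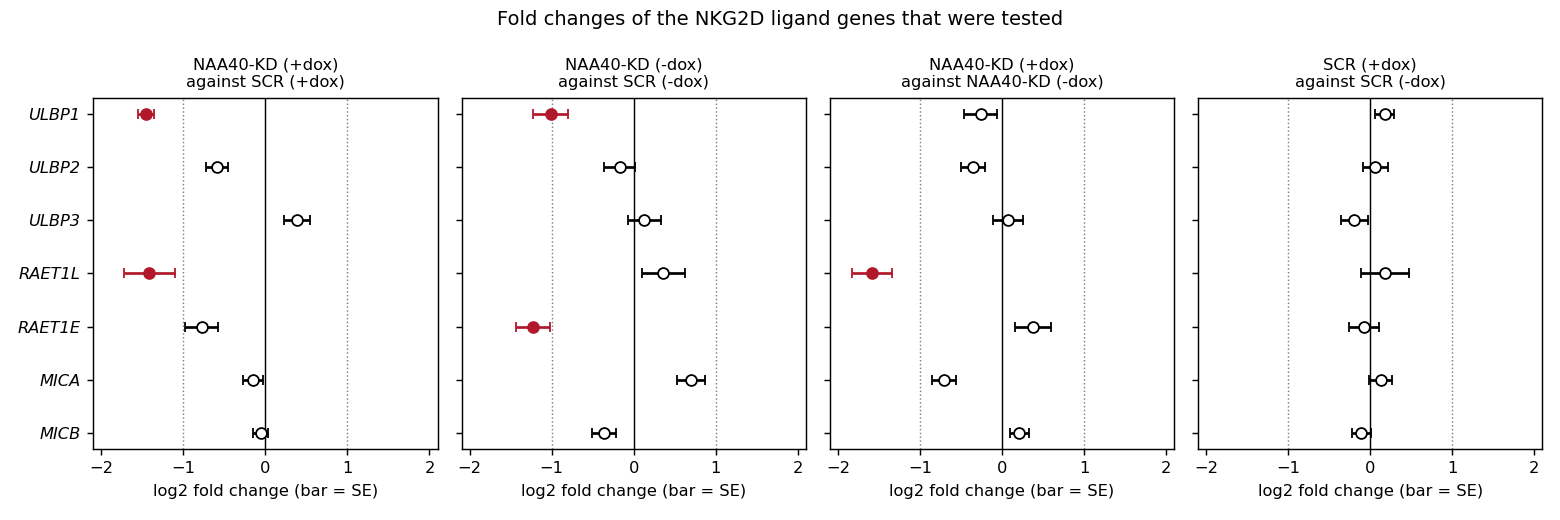
Log2 fold changes (x axis) of 6 NKG2D ligand genes and *RAET1E* in the 4 comparisons of groups, with bars for the SE and dotted lines at -1 and 1. Filled red points pass an adjusted p of 0.05 and an absolute log2 fold change of 1, which were *ULBP1* and *RAET1L* on the left, *ULBP1* and *RAET1E* in the second panel, *RAET1L* in the third and 0 genes on the right. For the members these marks rest on the values by which they were listed.

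Genes are called here where edgeR's quasi-likelihood F test gave a Benjamini-Hochberg adjusted p under 0.05 (adjusted across every gene in the fit) and the log2 fold change was above 1 in size. Of the 6 members tested, 2 met this between NAA40-KD (+dox) and SCR (+dox), both lower (*ULBP1* and *RAET1L*), where 2.15% of 13869 genes met it and 1.8% were lower. Between NAA40-KD (-dox) and SCR (-dox) 1 member met it (*ULBP1*, lower), where 3.47% of 13903 genes did and 1.85% were lower. Between the NAA40-KD groups 1 met it (*RAET1L*, lower with dox), against 3.99% of 13844 genes, of which 2.4% were lower. In the interaction 1 did (*RAET1L*, lower), against 4.49% of 14392 genes, of which 2.62% were lower. With no limit on the fold, 3 members were lower between the lines labelled (+dox) (*ULBP1*, *ULBP2* and *RAET1L*), where 24.5% of genes differed (10.9% higher and 13.7% lower), and 2 passed in the interaction (*MICA* and *RAET1L*), where 9.22% did. Nothing is read from these shares, because the members were listed with these contrasts known. The call of *ULBP1* between the lines held in 8 of 8 fits that each left out 1 library with dox, but in 1 of 8 without dox. The 7 that lost it were those without any 1 of the 4 SCR (-dox) libraries and those without NAA40-KD (-dox) replicate 1, 2 or 4, over which the log2 fold change ran from -1.09 to -0.85.

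Libraries of the compared groups did not overlap in 3 of the 7 members with dox (*ULBP1*, *ULBP2* and *RAET1L*) and in 3 without it (*ULBP1*, *MICA* and *MICB*), where 27% and 21.8% of all genes tested did not overlap. Between the NAA40-KD groups 4 members did not overlap, against 29.7% of genes.

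The dox label separated no member in the SCR line. Between SCR (+dox) and SCR (-dox) the libraries overlapped for all 7 members, where only 1.58% of all genes tested did not overlap. The 6 members tested had log2 fold changes from -0.19 (*ULBP3*) to 0.18 (*RAET1L*), and 0 met the call rule. That rule called 0 of 13882 genes (0%), and 271 genes had an unadjusted p under 0.05. The log2 fold change of *ULBP1* between the dox labels was 0.17 (SE 0.12) in the SCR line and -0.26 (SE 0.20) in the NAA40-KD line (-0.44 without NAA40-KD (-dox) replicate 4), where that of *MICA* was -0.71 (SE 0.15).

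Counts of some members cannot be fully told apart, because the genes are related and the sources used here do not say whether reads were counted by strand. Of the 50-base stretches in the transcripts of *ULBP2* 32.2% also occurred in another gene, mostly *RAET1L* (29.4%), and 31.5% of those of *RAET1L* did. The share was 18.3% for *RAET1G*, 12.4% for *ULBP3*, 6.85% for *ULBP1*, 2.94% for *MICB* and 2.64% for *MICA*. *RAET1E* shared 35.8% of its exon bases with other annotated genes, *RAET1G* 9.29% with *RAET1E-AS1*, and *MICA* 2.60% with *HCP5*. *ULBP1*, *ULBP2*, *ULBP3*, *MICB* and *RAET1L* shared 0% of their exon bases with another annotated gene.

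Factors known to act on these genes were examined as a list of 22, all tested. The list, like those that follow, was written from general knowledge with earlier results of these data known, so that no list is independent evidence of its direction. ATF4, a transcription factor of the integrated stress response, is known to drive *ULBP1*. *ATF4* fell from 705 ± 108 to 425 ± 35.7 CPM between SCR (+dox) and NAA40-KD (+dox) (SD, n = 4), which was -0.73 on the log2 scale (SE 0.11, edgeR adjusted p = 7.68e-05) and under the fold limit. Between the groups labelled (-dox) it was -0.55 (SE 0.17, adjusted p = 0.0851), and -0.70 without NAA40-KD (-dox) replicate 4 (edgeR adjusted p = 6.39e-05). *ATF3*, a stress factor that ATF4 induces, was the only 1 of the 22 called with dox, at -1.08 (SE 0.14, adjusted p = 1.99e-05), a call lost without NAA40-KD (+dox) replicate 4. *E2F1* and *E2F2*, which drive S phase genes and are known to act on NKG2D ligands in cycling cells, were the 2 called without dox, at -1.08 (SE 0.28, adjusted p = 0.0482) and -1.35 (SE 0.23, adjusted p = 0.0115). The call of *E2F2* held in 8 of 8 fits without 1 library, and that of *E2F1* in 1 of 8, with log2 fold changes from -1.37 to -0.90. *HSF1*, the heat shock factor, and *RBM4*, a splicing factor of *ULBP1*, had log2 fold changes from -0.08 to 0.49 in the 2 comparisons between lines and did not pass the test. The 0.49 was *HSF1* without dox, which was 0.07 without NAA40-KD (-dox) replicate 4, where *RBM4* went from 0.11 to 0.27.

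ATF4 target genes were lower together with *ULBP1*. All 18 of the 20 that were tested had an adjusted p under 0.05 and were lower in NAA40-KD (+dox) than in SCR (+dox), and 12 of them also passed the fold limit. The median log2 fold change was -1.14, against -0.00425 over all genes tested. The largest were *CHAC1*, which degrades glutathione, at -2.19, *TRIB3*, a pseudokinase, at -2.11, *SESN2*, an inhibitor of mTORC1, at -1.89, and *SLC7A11*, the cystine transporter, at -1.49. Without dox 7 of 18 were called, all lower, with a median of -0.71 against 0.0381 over all genes. These were led by *SLC7A11* at -2.29, *CHAC1* at -1.86, *TRIB3* at -1.62 and *PSAT1*, an enzyme of serine synthesis, at -1.56. The number called ran from 3 (without SCR (-dox) replicate 2 or NAA40-KD (-dox) replicate 2) to 8 (without NAA40-KD (-dox) replicate 4) when 1 library was left out, with 4 without SCR (-dox) replicate 3 or NAA40-KD (-dox) replicate 1 or 3. The calls of *SLC7A11*, *CHAC1* and *PSAT1* held in 8 of 8 fits without 1 library, and that of *TRIB3* in 2 of 8. The overlapping gene on the other strand leaves the count of *SLC7A11* uncertain. The same holds for other named genes, among them *TNFRSF10B*, *BRCA1*, *CLSPN*, *NECTIN4*, *PIGW* and *PVR* below.

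**Figure D4:**
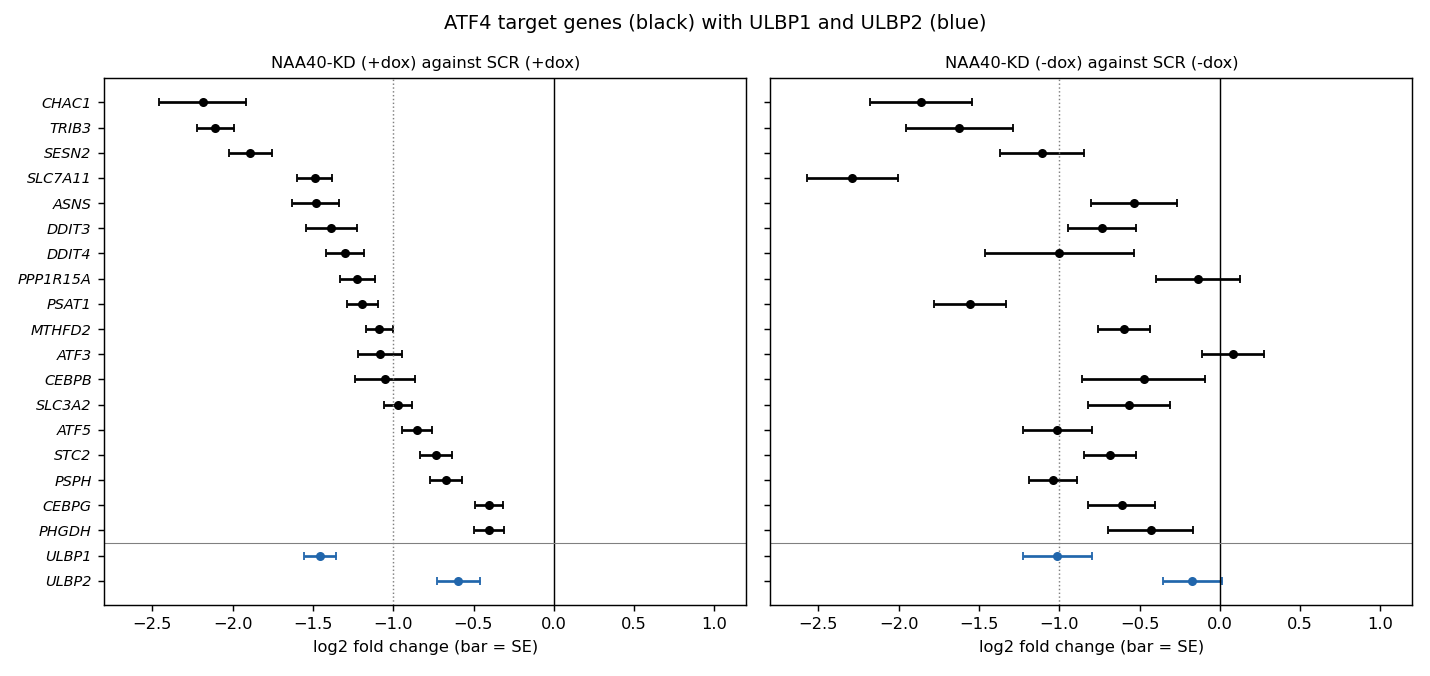
Log2 fold change (x axis) with SE of 18 ATF4 target genes (black) and of *ULBP1* and *ULBP2* (blue), between the lines labelled (+dox) on the left and (-dox) on the right, with a dotted line at -1. All 18 targets lie below 0 on the left, from -2.19 to -0.40, and 17 of them on the right, where *ATF3* is at 0.08.

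Pattern likeness was measured as Pearson's r of log2 CPM over the 16 libraries, between each member with a mean of at least 1 CPM and 14392 genes. The libraries share group structure and depth, so r is given as a description. For *ULBP1* the nearest genes were *ANXA10*, an annexin (0.974), *MTHFD2*, a mitochondrial folate enzyme (0.971), and *MAP1LC3B*, an autophagosome protein (0.970). For *ULBP2* they were *PPP1R15A*, *ATF3* and *HERPUD1* (0.883, 0.877 and 0.873), all genes of stress responses. *MICA* was nearest to *CLU*, *USP18* and *TENT5B* (0.939, 0.932 and 0.928), *MICB* to *TUBB*, *NFKB1* and *DYNLL1* (0.926, 0.925 and 0.915), *ULBP3* to *TBC1D16*, *LIMD1* and *UBE3B* (0.943, 0.934 and 0.925), and *RAET1L* to *ALDOC*, *CHMP7* and *SMPD1* (0.889, 0.878 and 0.878). Of these 18 genes 3, *MTHFD2*, *PPP1R15A* and *ATF3*, stand in the ATF4 target list. Within the family r was 0.66 between *ULBP1* and *ULBP2*, -0.63 between *ULBP1* and *ULBP3*, and -0.46 between *MICA* and *MICB*.

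Among the genes that release NKG2D ligands from the cell surface, 9 of 11 were tested. The metalloproteases *ADAM10* and *ADAM17* and the disulfide isomerase *PDIA6*, which assists the release of MICA, had log2 fold changes from -0.17 to 0.20 in both comparisons between lines and did not pass the test. Without NAA40-KD (-dox) replicate 4 the values without dox went from 0.14 to 0.36 for *ADAM10* (edgeR adjusted p = 0.00422), from -0.17 to -0.03 for *ADAM17* and from -0.12 to -0.04 for *PDIA6*. *MMP14*, a membrane-bound metalloprotease that can cleave MICA, rose in NAA40-KD (-dox), to 24.54 to 64.89 CPM against 13.98 to 19.02 CPM in SCR (-dox), which was 1.24 on the log2 scale (SE 0.29, edgeR adjusted p = 0.0383). Without NAA40-KD (-dox) replicate 4 its log2 fold change was 0.87, and its call held in 1 of 8 fits without 1 library. Of the GPI transamidase and anchor synthesis genes 19 of 20 were tested, and 0 were called between the lines with or without dox, although 4 had an adjusted p under 0.05 and were higher with dox. *PIGW*, which acylates the anchor's inositol, was higher in NAA40-KD (+dox) than in NAA40-KD (-dox), at 1.30 (SE 0.26, adjusted p = 0.0176), a call that held in 4 of 8 fits without 1 library, those in which an NAA40-KD (-dox) library was left out.

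Of the DNA damage checkpoint genes, a pathway known to induce NKG2D ligands, 17 of 18 were tested. Between the lines with dox 0 were called, and 7 had an adjusted p under 0.05 and were higher, with a median log2 fold change of 0.28. Without dox 2 were called, *BRCA1* at -1.38 (SE 0.19) and *CLSPN* at -1.38 (SE 0.20), both lower, with a median of -0.43 over the list, and both calls held in 8 of 8 fits without 1 library. Between the NAA40-KD groups these 2 were higher with dox, at 1.40 and 1.66. Of the 16 heat shock genes 0 were called between the lines, with medians of 0.08 with dox and -0.13 without it. With dox 3 had an adjusted p under 0.05 and were higher, and 2 were lower. Their list ran from -0.54 to 0.98 there, and the number called ran from 0 to 1 when 1 library was left out. In the interaction 1 was called, *HSPH1*, a co-chaperone, at 1.22 (SE 0.27, adjusted p = 0.00965).

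Ligands that NK cells read through other receptors were listed as 25 genes, of which 16 were tested. *TNFRSF10B*, the death receptor for TRAIL, fell with *ULBP1*, from 383 ± 31.8 to 182 ± 4.06 CPM between SCR (+dox) and NAA40-KD (+dox) (log2 fold change -1.08, SE 0.085, adjusted p = 8.83e-08). Without dox it went from 319 ± 68.2 to 193 ± 17.4 CPM. *NECTIN4*, a nectin read by TIGIT, was higher in NAA40-KD (-dox) than in SCR (-dox), by 1.30 on the log2 scale (SE 0.24, adjusted p = 0.0172). This call held in 5 of 8 fits without 1 library and was lost without SCR (-dox) replicate 1, 3 or 4. *PVR*, the ligand of DNAM-1, was lower in NAA40-KD (+dox) than in SCR (+dox) by less than the fold limit (-0.32, SE 0.080, adjusted p = 0.00757). *HLA-E*, the ligand of the inhibitory receptor NKG2A, had log2 fold changes of -0.27 with dox (SE 0.083, adjusted p = 0.0221) and 0.56 without it (SE 0.16, adjusted p = 0.0709), which was 0.42 without NAA40-KD (-dox) replicate 4 (adjusted p = 0.00177), and the interaction was -0.82 (SE 0.17, adjusted p = 0.00667). *NECTIN2* and *NCR3LG1*, the latter the ligand of NKp30, did not pass the test in either comparison, with log2 fold changes from -0.02 to 0.54. Without NAA40-KD (-dox) replicate 4 that of *NECTIN2* without dox went from 0.54 to 0.13 and that of *NCR3LG1* from 0.18 to 0.30.

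The receptor side had few counts. *KLRK1*, which encodes NKG2D itself, had 0 to 2 counts per library, and *HCST*, which encodes its adaptor DAP10, had 0 to 1. *KLRC2*, on the same list, had 6 to 24. Lymphocyte and NK cell markers summed to 3.12 to 6.16 CPM, and *PRF1* among them had 1.75 to 4.89 CPM. Myeloid markers summed to 1.42 to 4.33 CPM, and fibroblast markers to 56.9 to 196 CPM, the latter nearly all from *COL1A1*. Their part in the differences above was not tested. *KLRD1*, the partner of NKG2A, had 1 to 25 counts. Its 4 NAA40-KD (-dox) libraries had 11 to 25 counts and the 4 NAA40-KD (+dox) libraries 1 to 5. SCR (+dox) had 5 to 17 and SCR (-dox) 2 to 8, and both ranges overlapped that of NAA40-KD (+dox). The range of SCR (+dox) also overlapped that of NAA40-KD (-dox).

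Genes within 250 kb of the 2 places were examined for shared differences. Near *MICA* and *MICB* 19 of 55 neighbours were tested with dox, and 1 was called, *HCP5*, a noncoding gene that overlaps *MICA*, at -1.09 (SE 0.13, adjusted p = 1.32e-05). It fell from 11.5 ± 0.474 to 5.41 ± 0.639 CPM while *MICA* itself differed by -0.15. The median over the 19 was -0.22. At an edgeR adjusted p under 0.05 with no fold limit, 9 of the 19 were lower, *HCP5* among them, and 1 was higher. Over all genes tested 13.7% were lower and 10.9% higher. Of the 18 neighbours at 6q25 7 were tested, 0 were called between the lines with or without dox, and the medians were 0.27 and -0.06. With no fold limit 2 of the 7 were higher with dox and 0 lower. Between the NAA40-KD groups *NUP43* was called at 6q25 (1.09) and *C6orf47* (-1.25) and *DDAH2* (-1.07) at 6p21. The nearest expressed neighbours outside the cluster, *LRP11* and *PPP1R14C*, were at 0.63 (SE 0.12) and 0.27 (SE 0.11) with dox, where *ULBP1* was at -1.46. At 6p21 they were *HLA-B* at -0.47 (SE 0.099) and *DDX39B* at -0.10 (SE 0.11), and the annotated span of *HLA-B* overlaps that of *HLA-C*.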

How the data were processed

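RNA-seq of 16 HCT116 libraries in 4 labelled groups of 4 was analysed. The authors used STAR and featureCounts and deposited raw counts per gene, without normalization. The methods name the mouse build mm10 and the labels hg38 and GRCm38, while all 33937 identifiers were human Ensembl ones, 33590 of them with a symbol. Whether reads were counted by strand is not given in the sources used here. All count columns were matched to samples.

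Groups came from the labels. Totals of 11065606 to 13855486 counts limit the precision for weakly expressed members, and intervals cover counting error only. No libraries of a group were identical. The methods state independent RNA samples, and p-values measure the spread between these libraries.

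edgeR 4.0.16 in R 4.3.3 was run on the counts with TMM factors and the robust quasi-likelihood F test, two-sided, with p-values adjusted by Benjamini-Hochberg over every gene that had CPM >1 in 4 or more libraries of a fit. Each comparison of groups used its own 8 libraries and the interaction used all 16. SE was computed as the absolute log2 fold change over the root of F. The procedure was tested on simulated data with 200 genes changed. For NAA40-KD (-dox) against SCR (-dox) over 13918 genes it recovered 99% of 2-fold changes at an adjusted p under 0.05, without the fold limit. The simulation gave every gene the same spread and held no library that stood apart like NAA40-KD (-dox) replicate 4. The 99% is therefore not the share that would be recovered in the real libraries.

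The members and the 8 gene lists were chosen with earlier results of these data known. Genes were named if they were members, *RAET1E* or *NAA40*, up to 4 called genes with the largest change per list and comparison, a fixed set of regulators, proteases and NK ligands (*ATF4*, *HSF1*, *E2F1*, *RBM4*, *ADAM10*, *ADAM17*, *PDIA6*, *MMP14*, *PVR*, *NECTIN2*, *NCR3LG1* and *HLA-E*), the 3 genes most like each member with a mean of at least 1 CPM, or the nearest expressed neighbours. *KLRK1*, *HCST*, *KLRC2*, *PRF1*, *HLA-C*, *NUP43*, *C6orf47* and *DDAH2* were named after their values were seen. Results for 1 further gene of the fixed set are not reported here. Likeness used log2 CPM with a prior count of 2.

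Alternatives were DESeq2 1.42.0 and limma-voom (limma 3.58.1), normalization by library size or upper quartile, other filters (none, or CPM >1 in every library), a joint fit of the 16 libraries, replicate numbers as a block, leaving out each library, no fold threshold, and an adjusted p threshold of 0.1. Promoter sequences are from RefSeq (GRCh38.p14), in which 8 of 8 family genes were found. Figures were drawn with matplotlib 3.10.9. Protein sequences are not used here.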

Additional observations from a re-analysis of the deposited data

Results flagged for a closer look

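Of 36 levels of family genes and *NAA40* examined by group, 1 had a library far from the other 3 (Dixon's test at 95%, by which chance marks about 1 group in 20). It was *RAET1G* in NAA40-KD (+dox) replicate 1, at 0.635 CPM from 7 counts, where the other 3 libraries had 2 to 3 counts.

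The line effect differed between the 2 dox labels for *MICA*, with an interaction of -0.84 on the log2 scale, for *RAET1L*, with -1.77, and for *NAA40*, with 1.46, by edgeR's quasi-likelihood test on all 16 libraries at an adjusted p under 0.05. *MICA* and *RAET1L* were listed with these contrasts known, and *RAET1L* passed the filter on low counts through the groups in which it was high, so for these 2 this is a description and no independent test. Without NAA40-KD (-dox) replicate 4 they were -0.73 and -1.69.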

How the results depend on the processing

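With 1 library left out, the log2 fold change of *ULBP1* between the lines ran from -1.48 to -1.42 with dox and from -1.09 to -0.85 without dox. The number of members called depended more on the settings. With CPM >1 in every library *RAET1L* was no longer tested, so the number was 1 in place of 2 for NAA40-KD (+dox) against SCR (+dox), and 0 in place of 1 between the NAA40-KD groups and in the interaction. With no fold threshold it was 2 without dox, 2 between the NAA40-KD groups and 2 in the interaction. With 1 library left out it ran from 1 to 2 with dox, 0 to 1 without dox and 0 to 1 between the NAA40-KD groups.

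Genes called over the 8 lists numbered 13 with dox, 13 without dox, 7 between the NAA40-KD groups and 11 in the interaction. With no fold threshold these became 44, 18, 23 and 20. With 1 library left out the numbers without dox ran from 7 to 14 and those between the NAA40-KD groups from 3 to 6.

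With the replicate number as a block, 0 members and 4 list genes, 3 of them ATF4 targets, were called without dox. Over all genes the calls without dox went from 483 to 82. The labels do not say what samples of the same number shared. Their deviations from the group means correlated from -0.416 to 0.237, and between the NAA40-KD groups from 0.034 to 0.237. These correlations cannot show whether such samples were prepared together. The block changed no other call of a member. It also ended the call of *RAET1E* without dox.

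Signs turned, when 1 library was left out, for genes with changes near 0. With dox these were *PDIA6* (-0.0535 to 0.00715), *MMP14* (-0.126 to 0.0599), *E2F1* (-0.181 to 0.0499) and *NECTIN2* (-0.0843 to 0.0560), and without dox *ULBP3* (-0.0726 to 0.213), *RBM4* (-0.114 to 0.395) and *PVR* (-0.241 to 0.0140). The cause was not tested. Depth limits *RAET1G*, *RAET1L* and *KLRD1*, which had at most 34 counts in a library.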
